A study of Mus musculus with 32 samples.

Results

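Autophagy and lysosome genes are described here as a set of 38 members picked by symbol for their known roles, across 2 mouse cell lines. The choice was made with earlier results of these data known. Shares of members set beside shares of all genes are therefore descriptive. All 38 were found in both deposited count tables, among 27843 genes listed for AML12 and 55414 listed for HL-1, under the same symbol and gene ID. All 38 also passed the filter on low counts, among 14114 genes tested in AML12 and 14450 in HL-1, and the lowest member count in any library was 62 reads, for Mitf. The series holds 32 RNA-seq libraries in 8 groups of 4. The hepatocyte line AML12 was given a treatment that the labels call DEX and was sampled at 25 h and at 17 h, each beside cells given a control treatment. HL-1, a cardiomyocyte line, was kept in AML12-derived conditioned medium (CM) with DEX synchronization and sampled at 28 h and at 16 h. Its controls at 28 h and 16 h were kept in AML12-derived medium without DEX synchronization, so every HL-1 library met medium from AML12 cells. Each line is a single established line, and no label says whether replicate libraries were grown as separate cultures, so p-values measure only the spread between these libraries.

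Lysosomes are acidic organelles that digest proteins, lipids and sugars, and autophagy is the route by which a cell wraps its own contents in a membrane, the autophagosome, and delivers them to lysosomes. The transcription factors TFEB, TFE3 and MITF bind a short E-box-like element in the promoters of many lysosomal and autophagy genes and are held in the cytoplasm by nutrient signalling through mTORC1. Autophagy in liver and heart is known to follow the time of day and the state of feeding. The members described by name are 4 regulators, 5 lysosomal proteases, 5 glycosidases, 5 membrane, lipid transfer and activator proteins, 4 subunits of the proton pump, 6 genes of autophagy initiation and membrane supply, 3 of the conjugation machinery, and the cargo receptor Sqstm1; counts and medians are over all 38.

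An E-box-like element of the kind read by the TFEB family was looked up first in the members' promoters. RefSeq promoters on GRCm38.p6, running from 250 bases before to 50 bases after the annotated start, were available for 32 of the 38 members; Ctsb, Atp6v1b2, Becn1, Atp6v1h and Atg16l1 were among those with no entry. The 4 motifs searched were nested and were read on both strands: the core CACGTG, its extensions TCACGTGA and GTCACGTG, and GTCACGTG followed by AC, which contains all of the shorter ones. The core was found for 12 of the 32 members (37.5%), against 8.09% of all genes with a promoter in the table, 11.7% of the genes tested in AML12 and 11.5% of those tested in HL-1. TCACGTGA was found for 6 members (18.8%), against 1.12% of all genes, 2.21% of those tested in AML12 and 2.2% of those tested in HL-1. GTCACGTG was found for 8 members (25%), against 2.55% of all genes, 4.77% of those tested in AML12 and 4.66% of those tested in HL-1. The longest form was found for 0 members and for 0.37% of all genes, 0.841% of those tested in AML12 and 0.799% of those tested in HL-1. A match is a run of letters and not a shown binding site, of the TFEB family or of any other factor. The members were picked for lysosomal and autophagy roles, and promoters of many such genes are known to hold this element. A higher share than among all genes could therefore be foreseen, and it was not tested. Mcoln1, Ctsd, Ctsa, Gla, Naglu, Lamp1, Atp6v0d1, Atp6v1a and Atg7 held at least 1 of the extended motifs, 9 members in all. The promoters of 4 are shown because their genes moved in different ways under DEX: Ctsd and Ctsa were lower at both times, Atp6v0d1 only passed the test at 25 h, and Naglu passed it, in the opposite direction, only at 17 h. Ctsa had 2 RefSeq promoters, and the second is the one shown. Its first, chr2:164832622-164832921, covers the gene start in GENCODE M21 (164832873) and held 0 matches to any of the 4 motifs. Capitals mark the matches, including core matches that run into an extension.
Ctsd, chr7:142387778-142388077, strand -: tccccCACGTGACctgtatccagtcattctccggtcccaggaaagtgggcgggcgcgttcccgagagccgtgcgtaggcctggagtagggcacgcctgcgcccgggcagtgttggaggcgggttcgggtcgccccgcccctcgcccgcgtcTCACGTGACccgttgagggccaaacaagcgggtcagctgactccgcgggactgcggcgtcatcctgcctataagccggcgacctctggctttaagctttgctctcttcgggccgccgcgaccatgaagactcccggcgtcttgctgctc
Ctsa, chr2:164833523-164833822, strand +: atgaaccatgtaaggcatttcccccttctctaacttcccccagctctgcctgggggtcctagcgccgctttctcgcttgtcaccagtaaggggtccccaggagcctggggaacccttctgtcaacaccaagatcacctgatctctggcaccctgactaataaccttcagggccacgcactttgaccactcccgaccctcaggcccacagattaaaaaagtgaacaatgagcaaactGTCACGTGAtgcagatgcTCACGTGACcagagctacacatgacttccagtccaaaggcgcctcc
Atp6v0d1, chr8:105566015-105566314, strand -: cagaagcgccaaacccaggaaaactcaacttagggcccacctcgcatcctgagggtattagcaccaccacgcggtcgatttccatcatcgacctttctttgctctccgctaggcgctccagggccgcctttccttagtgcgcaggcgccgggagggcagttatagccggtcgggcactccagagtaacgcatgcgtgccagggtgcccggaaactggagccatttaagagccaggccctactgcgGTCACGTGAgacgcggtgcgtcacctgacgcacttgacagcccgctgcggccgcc
Naglu, chr11:101069844-101070143, strand +: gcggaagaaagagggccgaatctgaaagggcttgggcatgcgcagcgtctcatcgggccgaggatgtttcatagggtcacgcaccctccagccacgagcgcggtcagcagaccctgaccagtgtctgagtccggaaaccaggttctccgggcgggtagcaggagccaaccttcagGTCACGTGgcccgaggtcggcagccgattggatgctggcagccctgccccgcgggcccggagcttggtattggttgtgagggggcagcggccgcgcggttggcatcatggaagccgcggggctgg

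The AML12 libraries held 15.0 to 17.5 M reads (M, mega) in the tables and the HL-1 libraries 15.7 to 19.3 M reads. Levels are given in CPM, counts scaled per M of the library's total after TMM scaling. Replicates of a group were compared by a chi-square of their counts per degree of freedom, where values near 1 would be counting noise alone. The second DEX library at 17 h differed from its 3 replicates by 13.6 to 18.1 per degree of freedom, against 2.41 to 4.00 among those 3. The third HL-1 control library at 16 h differed from its replicates by 8.05 to 16.6, against 2.73 to 5.58. Less clearly, the fourth libraries of DEX at 25 h, control at 25 h and control at 17 h also stood apart in AML12. Counts of called members are given below without these 5 libraries where they changed. Among the markers of the labelled cell types, AML12 held Hnf4a at a mean of 205 CPM and Apob at 154 CPM, while Alb, Ttr, Apoa1 and Serpina1a each averaged under 2 CPM, with Alb at 1.43 CPM. The bile duct marker Krt19 averaged 1700.5 CPM in AML12. HL-1 held Gja1 at 466 CPM and Des at 524 CPM, while Myh6, Actc1 and Nppa were near 0, with 4, 5 and 5 reads over all 16 libraries. Its other cardiomyocyte markers were Tnnt2 at 34.5, Gata4 at 18.1 and Ryr2 at 0.422 CPM. Of the fibroblast markers HL-1 held Vim at 6284 CPM, Col3a1 at 1455, Col1a1 at 175, Pdgfra at 52.0 and Thy1 at 0.0143 CPM.

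Between genes, levels were set side by side only per kilobase of exon, as mean CPM per kb ± SD over 4 libraries. In AML12 control cells at 17 h the highest members were Psap, the precursor of the saposins that activate sphingolipid hydrolases, at 327 ± 5.20 CPM per kb, and Sqstm1 (p62), the receptor that hands ubiquitinated cargo to autophagosomes, at 316 ± 7.18 CPM per kb. The protease cathepsin Z (Ctsz) followed at 283 ± 6.99 CPM per kb and the abundant lysosomal membrane glycoprotein Lamp1 at 218 ± 4.19 CPM per kb. Among the lower levels were those of the transcription factors, with Tfe3 at 8.61 ± 0.330, Tfeb at 3.68 ± 0.0776 and Mitf at 0.933 ± 0.0814 CPM per kb; Tfeb and the pump subunit Atp6v1h, at 3.72 ± 0.107, lay within their spread of each other. In HL-1 control cells at 16 h Psap again came first, at 409 ± 11.2 CPM per kb. It was followed by Sqstm1 at 153 ± 11.2, Lamp1 at 135 ± 5.18 and the cysteine protease cathepsin B (Ctsb) at 129 ± 1.84 CPM per kb. The lowest were Mitf at 2.62 ± 0.103 and Tfeb at 1.97 ± 0.404 CPM per kb. The 2 lines were counted in separate tables, so these levels were not tested against each other.

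In AML12 cells at 25 h, the members that changed with DEX were all lower. A log2 fold change is given as DEX over control ± SE, with 4 libraries per group, and a gene is called where the adjusted p of edgeR's quasi-likelihood test (Benjamini-Hochberg over all 14114 genes) is under 0.05. Of the 38 members 13 fell and 0 rose, where 4.96% of all tested genes fell and 6.79% rose. No member reached an unadjusted p under 0.05 in the higher direction, against 16 in the lower direction, and DESeq2 and limma-voom also called 0 members higher. The share of all tested genes at that unadjusted threshold was not counted. The median log2 fold change was -0.09 over the members and 0.002 over all tested genes, and 33 of the 38 were negative. All 4 DEX libraries lay below all 4 control libraries for 14 members and above them for 0, against 8.46% and 9.57% of all genes. The changes were small, from -0.13 to -0.32 among the called members given by name. Without the 4 libraries that stood apart 13 members were again lower and 0 higher, 11 of them the same genes.

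Tfeb, the transcription factor that activates the lysosomal programme, was the regulator that fell at 25 h. The gene lies at chr17:47737030-47792419 on the plus strand of GRCm38. It had 20.1, 18.5, 18.2 and 17.4 CPM in DEX cells, against 22.0, 23.8, 23.4 and 23.6 CPM in control cells. Every DEX library lay below every control library, with a log2 fold change of -0.32 ± 0.06 (adjusted p = 9.70e-04, edgeR). The other regulators did not pass the test: Tfe3 had -0.09 ± 0.05, Mitf -0.12 ± 0.14 and Mcoln1, the calcium channel of the lysosomal membrane, -0.06 ± 0.04 on the log2 scale.

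Of the 5 proteases 3 fell at 25 h. Ctsd, the aspartic protease cathepsin D whose promoter is shown above, had 378, 364, 354 and 330.1 CPM in DEX cells, against 406, 386, 409 and 394 CPM in control cells, with a log2 fold change of -0.16 ± 0.04 (adjusted p = 0.00788, edgeR). Ctsa, protective protein and carboxypeptidase that stabilises neuraminidase and beta-galactosidase, had 128, 120.3, 119 and 108 CPM in DEX cells, against 141, 136, 134 and 139 CPM in control cells (-0.21 ± 0.04, adjusted p = 0.00163). Ctsb had 282, 306, 293 and 293 CPM in DEX cells, against 317, 338, 309 and 340.1 CPM in control cells (-0.15 ± 0.04, adjusted p = 0.0249). In all 3 the 4 DEX libraries lay below the 4 control libraries. The exons of Ctsd, Ctsb and Ctsa overlap those of neighbouring genes in GENCODE M21 (Gm49369; Fdft1; Neurl2 and Pltp), and the strand setting of the counting is not given in the sources used here, so some of their reads may belong to those neighbours.

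Among the glycosidases 2 of 5 fell at 25 h. Gaa, the acid alpha-glucosidase that breaks down glycogen in lysosomes, had 155, 163, 158 and 157 CPM in DEX cells, against 188, 184, 183 and 182 CPM in control cells (-0.21 ± 0.04, adjusted p = 0.00111). Hexa, the alpha subunit of beta-hexosaminidase, had 58.9, 63.3, 59.4 and 61.0 CPM in DEX cells, against 65.2, 66.0, 66.6 and 66.9 CPM in control cells (-0.13 ± 0.04, adjusted p = 0.0447). Among the 5 membrane, lipid transfer and activator proteins only Psap passed the test, with 914, 890.0, 865 and 824 CPM in DEX cells, against 1013, 995, 1006 and 1001 CPM in control cells (-0.20 ± 0.04, adjusted p = 5.75e-04). The libraries of these 3 genes did not overlap between DEX and control cells.

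Of the 4 proton pump subunits 2 fell at 25 h. The V-ATPase pumps protons into the lysosome; Atp6v0d1 belongs to its membrane sector and Atp6v1b2 to the catalytic head. Atp6v0d1 had 101, 102, 98.8 and 95.4 CPM in DEX cells, against 114, 111, 116 and 112 CPM in control cells (-0.19 ± 0.04, adjusted p = 0.00153). Atp6v1b2 had 299.6, 300.4, 299 and 279.5 CPM in DEX cells, against 349, 332, 339 and 353 CPM in control cells (-0.22 ± 0.04, adjusted p = 3.66e-04). For both, all DEX libraries were lower than all control libraries.

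On the autophagosome side, none of the 6 initiation and membrane supply genes was called at 25 h, with log2 fold changes of -0.08 to 0.04. Of the 3 conjugation genes 2 fell. Atg7, the E1-like enzyme of the conjugation machinery, had 71.7, 73.6, 70.4 and 69.8 CPM in DEX cells, against 82.6, 82.0, 76.6 and 78.3 CPM in control cells (-0.16 ± 0.05, adjusted p = 0.0420). Atg16l1, which places the conjugation complex on the growing membrane, had 37.7, 38.8, 36.6 and 35.2 CPM in DEX cells, against 39.3, 43.6, 43.9 and 42.5 CPM in control cells (-0.19 ± 0.05, adjusted p = 0.00826). Neither gene's libraries overlapped between the groups.

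The cargo receptor gene Sqstm1 fell too at 25 h. It had 1092, 1126, 1107 and 1012 CPM in DEX cells, against 1239.6, 1252, 1163 and 1233 CPM in control cells (-0.17 ± 0.04, adjusted p = 0.00773), with no overlap. Leaving out 1 library at a time ended the call of Hexa in 7 of 16 omissions (adjusted p up to 0.0733, without the first DEX library at 25 h), of Atg7 in 6 (up to 0.0935, without the fourth DEX library at 25 h) and of Ctsb in 3 (up to 0.0656, without the fourth control library at 25 h). The call of Hexa at 25 h was also lost without the low-count filter (adjusted p = 0.201, edgeR), with total counts only (0.0627), with the replicate block (0.0587) and without the libraries that stood apart (0.0636), and that of Atg7 with total counts only.

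**Figure D1:**
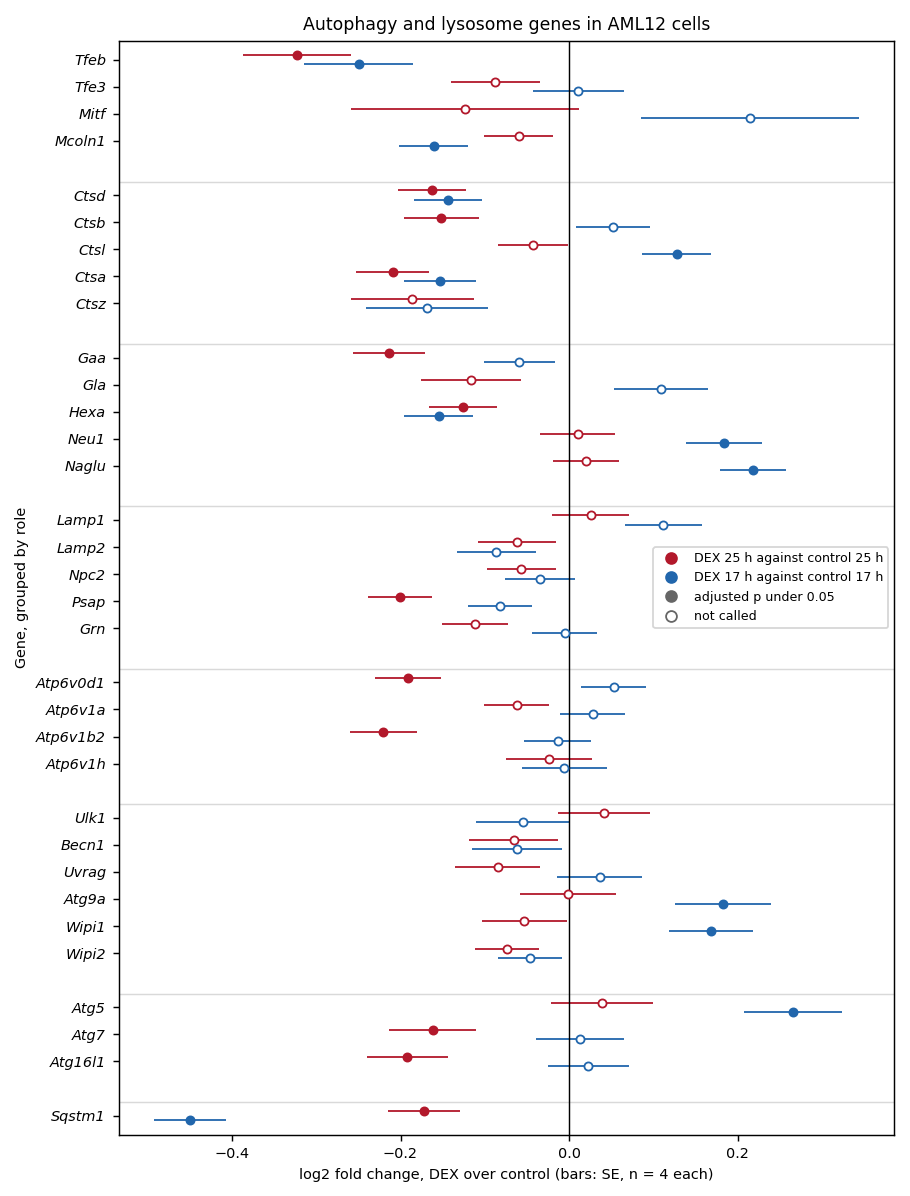
Log2 fold change of 33 members, DEX over control, in AML12 cells at 25 h (red) and 17 h (blue), grouped by role; bars are SE, with 4 libraries per group. Filled points passed an adjusted p of 0.05 and open points did not; all 12 filled points at 25 h lie left of 0, while at 17 h 6 lie right and 6 left.

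At 17 h under DEX, members were called in both directions, about as often as all tested genes. Of the 38 members 7 rose and 9 fell, against 20.5% of all tested genes that rose and 17.9% that fell, and 42.1% of members and 38.4% of all genes were called in either direction. The median log2 fold change was -0.006 over the members and 0.004 over all genes. All 4 DEX libraries lay above all 4 control libraries for 6 members and below them for 7, against 18.3% and 15.8% of all genes. Scaling by total counts alone gave 6 higher and 12 lower, and without the 4 AML12 libraries that stood apart 5 were higher and 7 lower.

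The largest fall at 17 h was that of Sqstm1 (GRCm38 chr11:50199366-50210827, minus strand), which had 764, 753, 839 and 746 CPM in DEX cells, against 1028, 1085, 1069 and 1054 CPM in control cells (-0.45 ± 0.04, adjusted p = 7.70e-09, edgeR). Its exons overlap those of Mrnip. Tfeb had 17.7, 16.0, 19.3 and 17.3 CPM in DEX cells, against 21.1, 20.3, 21.2 and 20.9 CPM in control cells (-0.25 ± 0.06, adjusted p = 0.00346). Mcoln1 had 135, 138, 138 and 136 CPM in DEX cells, against 147, 154, 154 and 158 CPM in control cells (-0.16 ± 0.04, adjusted p = 0.00293). All 3 genes had every DEX library below every control library. Tfe3 and Mitf did not pass the test, at 0.01 ± 0.05 and 0.21 ± 0.13.

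The hydrolase genes Ctsd, Ctsa and Hexa were also lower at 17 h, without overlap between the groups. Ctsd had 338, 360.3, 354 and 344 CPM in DEX cells, against 379.9, 384, 389 and 389 CPM in control cells (-0.14 ± 0.04, adjusted p = 0.00650). Ctsa had 145, 154, 144 and 142 CPM in DEX cells, against 161, 163, 160.1 and 165 CPM in control cells (-0.15 ± 0.04, adjusted p = 0.00597). Hexa had 59.7, 57.3, 61.2 and 59.3 CPM in DEX cells, against 64.3, 65.0, 66.0 and 69.0 CPM in control cells (-0.15 ± 0.04, adjusted p = 0.00391).

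The members that rose at 17 h had different roles. Atg5, which is joined to ATG12 in the conjugation complex, had 39.6, 39.0, 40.3 and 39.4 CPM in DEX cells, against 33.4, 30.3, 37.2 and 30.7 CPM in control cells (0.27 ± 0.06, adjusted p = 6.84e-04, edgeR). Naglu, the lysosomal alpha-N-acetylglucosaminidase that degrades heparan sulfate, had 129, 124, 134 and 119.9 CPM in DEX cells, against 107, 112, 107 and 111 CPM in control cells (0.22 ± 0.04, adjusted p = 7.57e-05). In both genes the 4 DEX libraries lay above the 4 controls. Neu1, the lysosomal sialidase, had 112, 96.1, 108 and 109 CPM in DEX cells, against 91.5, 92.5, 93.3 and 97.2 CPM in control cells (0.18 ± 0.04, adjusted p = 0.00192), with the second DEX library inside the control range.

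Wipi1, which reads phosphatidylinositol 3-phosphate on the forming autophagosome, had 81.8, 94.0, 81.1 and 76.8 CPM in DEX cells, against 72.4, 75.2, 75.2 and 74.0 CPM in control cells (0.17 ± 0.05, adjusted p = 0.00972). Atg9a, a membrane protein that carries lipid to the autophagosome, had 49.5, 60.7, 49.4 and 53.1 CPM in DEX cells, against 46.7, 49.99, 45.1 and 45.6 CPM in control cells (0.18 ± 0.06, adjusted p = 0.0130). For both, the second DEX library was the highest, and without it the adjusted p was 0.0559 for Wipi1 and 0.0773 for Atg9a. Without all 4 libraries that stood apart it was 0.0956 for Wipi1 and 0.163 for Atg9a. Ctsl, the cysteine protease cathepsin L, had 348, 345, 356 and 358 CPM in DEX cells, against 331, 322, 327 and 307 CPM in control cells (0.13 ± 0.04, adjusted p = 0.0158), with no overlap, and without the fourth control library at 17 h its adjusted p was 0.0906, with total counts only 0.0842 and without the low-count filter 0.0540. Exons of Ctsl overlap an antisense gene and a pseudogene, and those of Atg9a overlap Ankzf1.

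The 6 members lower at both times under DEX included Tfeb, Ctsd, Ctsa, Hexa and Sqstm1. The 6 are 66.7% of the 9 that fell at 17 h and 46.2% of the 13 that fell at 25 h, and 0 members were called in opposite directions. This overlap was not counted over all tested genes, so the shares cannot be set against a background. The change in the DEX effect was tested directly, as the effect at 25 h minus the effect at 17 h. It passed for 9 members, 1 above 0 and 8 below, where 7.91% of all genes were above and 8.27% below. Sqstm1 was the one above 0 (0.28 ± 0.06, adjusted p = 0.00205, edgeR), with its fall of -0.17 at 25 h against -0.45 at 17 h.

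The 8 members whose DEX effect was lower at 25 h had different roles. Both pump subunits that fell at 25 h were among them, Atp6v0d1 at -0.24 ± 0.06 and Atp6v1b2 at -0.21 ± 0.06. So were 3 hydrolases, Ctsb at -0.20 ± 0.06, Naglu at -0.20 ± 0.06 and Ctsl at -0.17 ± 0.06. On the autophagosome side Wipi1 had -0.22 ± 0.07 and Atg16l1 -0.21 ± 0.07. Not all of these calls held under other settings. In single-library omissions the call was lost in 10 of 16 for Ctsl (adjusted p up to 0.0974, without the second DEX library at 25 h), 8 for Atg16l1 (up to 0.0642, without the second control library at 25 h), 7 for Ctsb (up to 0.0588, without the same control library) and 6 for Wipi1 (up to 0.0660, without the second DEX library at 25 h). Of all 23 settings run, Ctsl lost the call in 13, Atg16l1 in 12 (DESeq2 among them, adjusted p = 0.0527), Ctsb and Wipi1 in 8 each and Naglu in 2, while Sqstm1, Atp6v0d1 and Atp6v1b2 kept it in all 23. The difference did not pass for the regulators, at -0.07 ± 0.09 for Tfeb, -0.10 ± 0.08 for Tfe3, -0.34 ± 0.19 for Mitf and 0.10 ± 0.06 for Mcoln1. This count depended on the scaling: total counts alone gave 1 above and 2 below. Without the low-count filter there were 1 above and 4 below, and without the fourth control library at 17 h also 1 above and 4 below. Without all 4 libraries that stood apart there were 1 above and 6 below.

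**Figure D2:**
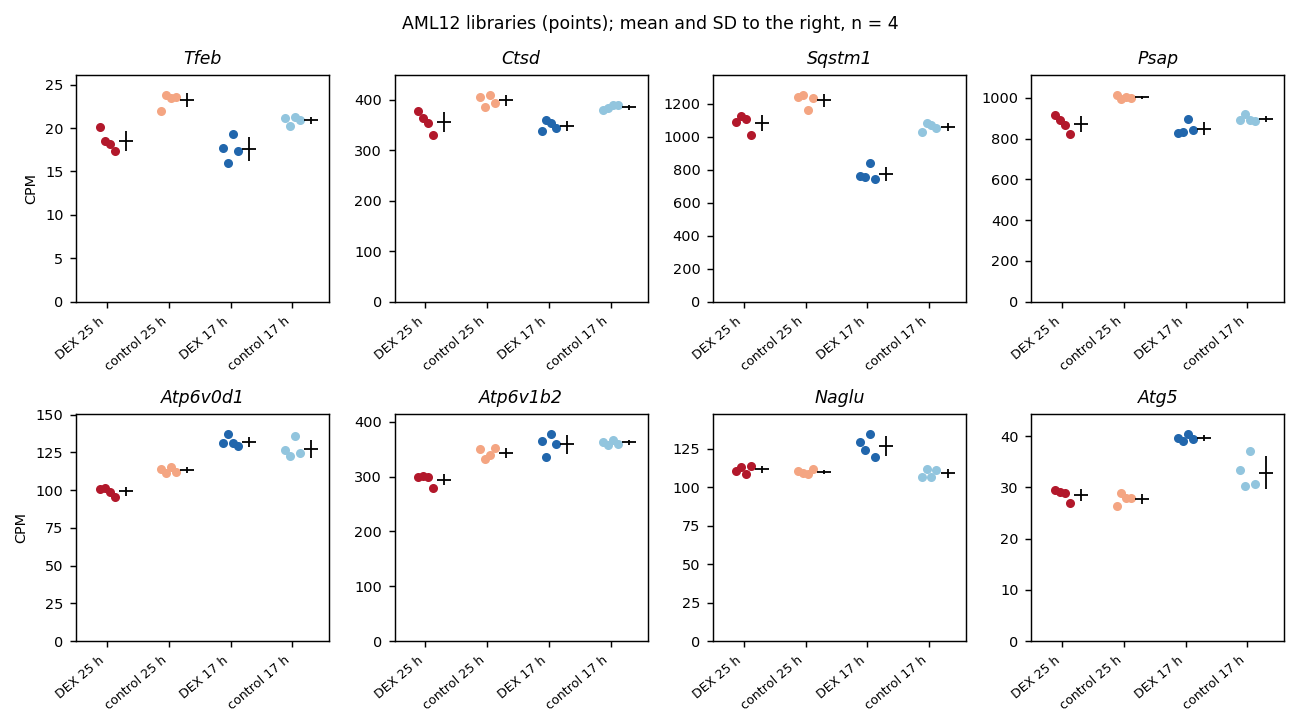
CPM of 8 members in every AML12 library (points; group mean and SD to the right, n = 4), for DEX 25 h, control 25 h, DEX 17 h and control 17 h from left to right. Tfeb and Ctsd sit lower in DEX cells at both times, the pump subunits Atp6v0d1 and Atp6v1b2 only at 25 h, and Naglu and Atg5 sit higher in DEX cells at 17 h.

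Of 130 other genes of the pathway 127 were tested in each line. At 25 h in DEX cells 1 of the 127 rose and 15 fell, against 6.79% and 4.96% of all tested genes. Together 12.6% of the 127 were called, against 11.7% of all tested genes. The riser was Snap29, a SNARE of autophagosome fusion (0.19 ± 0.06, adjusted p = 0.0462, edgeR), in a list of autophagosome formation, cargo and fusion where 3 of 40 fell, led by the autophagy receptor gene Calcoco1 (-0.24 ± 0.05). Of 13 further proton pump genes only Atp6ap1, an accessory subunit, fell (-0.12 ± 0.04). Of 42 further lysosomal enzymes, activators and sorting genes 5 fell, led by beta-galactosidase Glb1 (-0.31 ± 0.05). Of 32 genes that signal nutrients to the TFEB family 6 fell, led by Sesn3 (-0.26 ± 0.05), a sestrin that restrains mTORC1.

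At 17 h in DEX cells 26 of these 127 genes rose and 30 fell, against 20.5% and 17.9% of all tested genes. Together 44.1% of the 127 were called, against 38.4% of all tested genes. The further pump genes gave 1 rise, of Atp6v0a2 (0.17 ± 0.05), and 4 falls, led by Atp6v1g1 (-0.19 ± 0.05). The enzyme and sorting list gave 9 rises, led by cathepsin H, Ctsh (0.46 ± 0.05), and 10 falls, led by cathepsin F, Ctsf (-0.77 ± 0.30). Autophagosome genes gave 7 rises, led by the fusion adaptor Plekhm1 (0.34 ± 0.04), and 11 falls, led by Atg16l2 (-0.59 ± 0.08). The nutrient list gave 9 rises, led by the folliculin partner Fnip2 (0.37 ± 0.05), and 5 falls, led by Sesn3 (-1.12 ± 0.05, adjusted p = 4.43e-15, edgeR). For the effect at 25 h minus that at 17 h, 12 were above 0 and 20 below, against 7.91% and 8.27% of all tested genes. Sesn3 had 0.87 ± 0.07 there and its paralog Sesn2 -0.51 ± 0.08. The further extremes of that difference were Ctsc (0.57 ± 0.07) and Sgsh (-0.45 ± 0.09) among enzymes, and Atg16l2 (0.41 ± 0.10) and Nrbf2 (-0.36 ± 0.12) among autophagosome genes.

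Markers of cell state moved with DEX beside these genes. The summed CPM of 5 proliferation genes was 880.2 to 1102 in DEX cells at 25 h and 528 to 601 in control cells at 25 h; it was 1491 to 1701 in DEX cells at 17 h and 824 to 945 in control cells at 17 h. Of 8 macrophage markers, cells rich in lysosomes, 6 were analysed in AML12. Their sum was 241 to 252 CPM in DEX cells at 25 h and 208 to 229 CPM in control cells at 25 h, and 111 to 119 CPM in DEX cells at 17 h against 169 to 179 CPM in control cells at 17 h. Cd14 made up most of it, at a mean of 181 CPM, with Csf1r at 7.25 CPM, while Ptprc, Itgam, Lyz2 and Aif1 averaged 0.126, 0.0199, 0.118 and 0.203 CPM. Bile duct markers, 3 of 4 analysed, summed to 2129 to 2230.3 CPM in DEX cells at 25 h, 2237 to 2289.8 in control cells at 25 h, 2360.3 to 2579 in DEX cells at 17 h and 1760.3 to 1959.8 in control cells at 17 h. Hepatocyte markers, 7 of 8 analysed, summed to 386 to 410.3 CPM in DEX cells at 25 h and 367 to 405 CPM in control cells at 25 h, and to 281 to 294 CPM in DEX cells at 17 h and 382 to 419 CPM in control cells at 17 h. Fibroblast markers, 4 of 5 analysed, summed to 2371 to 2534 CPM in DEX cells at 25 h and 2182.4 to 2316 CPM in control cells at 25 h, and to 2342 to 2556 CPM in DEX cells at 17 h and 2276 to 2394 CPM in control cells at 17 h. Vim made up nearly all of that sum, at a mean of 2377 CPM. Col1a1, Pdgfra and Thy1 averaged 3.99, 0.381 and 0.00367 CPM. Cardiomyocyte markers, 6 of 8 analysed, summed to 101 to 112 CPM in DEX cells at 25 h and 86.5 to 98.2 CPM in control cells at 25 h, and to 97.8 to 106 CPM in DEX cells at 17 h and 89.4 to 99.3 CPM in control cells at 17 h. Of these Tnnt2 averaged 55.1 CPM, Gata4 22.8, Gja1 18.8 and Des 2.43 CPM. Myh6 and Nppa had 2 reads each over all AML12 libraries. The part of proliferation and of these markers in the members' differences was not tested. In bulk RNA, fewer cells of a kind and less RNA per cell cannot be told apart.

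Between 25 h and 17 h within AML12, the members were called about as often as all genes, with 4 of 38 higher and 18 lower in DEX cells at 25 h, against 27.8% and 28.2% of all tested genes, 56% together. The largest falls were those of Gla (-0.52 ± 0.06, adjusted p = 5.24e-08, edgeR), Ctsb (-0.51 ± 0.04), Atg5 (-0.47 ± 0.06) and Ctsl (-0.46 ± 0.04). Each of the 4 pump subunits fell, with Atp6v0d1 at -0.41 ± 0.04, Atp6v1a at -0.38 ± 0.04, Atp6v1b2 at -0.29 ± 0.04 and Atp6v1h at -0.18 ± 0.05. Falls that were not called in control cells included those of Mitf (-0.40 ± 0.13), Wipi1 (-0.28 ± 0.05), Lamp1 (-0.19 ± 0.05) and Naglu (-0.19 ± 0.04), besides Atp6v1b2. Whether the change with time differed between DEX and control cells is the difference of DEX effects tested above. It passed for Wipi1, Naglu and Atp6v1b2 and did not pass for Mitf or Lamp1. Sqstm1 (0.48 ± 0.04), Tfe3 (0.25 ± 0.05) and Ulk1, the kinase that starts autophagy (0.23 ± 0.06), were higher, and Tfeb (0.08 ± 0.07) and Mcoln1 (0.07 ± 0.04) were not called. The call of Mitf was lost without the fourth DEX library at 25 h (adjusted p = 0.0557, edgeR) and without all 4 libraries that stood apart (0.150).

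In control cells 7 of 38 were higher and 12 lower at 25 h than at 17 h, against 22.1% and 21.4% of all tested genes, 43.5% together. All 12 that fell there also fell in DEX cells, where they are 66.7% of the 18. How often this held over all tested genes was not counted. The lower ones included the proteases Ctsb (-0.30 ± 0.04), Ctsl (-0.29 ± 0.04), Ctsa (-0.24 ± 0.04) and Ctsz (-0.22 ± 0.07), so that 4 of 5 proteases fell. The glycosidases Gla, the alpha-galactosidase A (-0.29 ± 0.06), and Gaa (-0.15 ± 0.04) fell too, as did progranulin, Grn (-0.20 ± 0.04). Of the pump subunits Atp6v1a (-0.29 ± 0.04), Atp6v0d1 (-0.17 ± 0.04) and Atp6v1h (-0.16 ± 0.05) fell, and on the autophagosome side Atg5 (-0.24 ± 0.06). The higher ones included Tfe3 (0.35 ± 0.05), Sqstm1 (0.21 ± 0.04), Atg7 (0.19 ± 0.05), Psap (0.16 ± 0.04), Atg16l1 (0.15 ± 0.05) and Neu1 (0.11 ± 0.04). Tfeb (0.15 ± 0.06), Mitf (-0.07 ± 0.13) and Mcoln1 (-0.03 ± 0.04) were not called. Total counts alone gave 5 higher and 16 lower, and without the 4 libraries that stood apart 8 were higher and 14 lower. The call of Neu1 was lost in 7 of 16 single-library omissions (adjusted p up to 0.114, without the fourth control library at 25 h), that of Ctsz in 2 (up to 0.0743, without the third control library at 25 h) and that of Atp6v1h in 1 (0.0680, without the second control library at 25 h). Neu1 was not called with DESeq2 either (adjusted p = 0.0629), and Atg16l1 was not called with total counts only (0.0821) or without the low-count filter (0.0918).

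Other pathway genes moved likewise in both directions between the times in AML12. In DEX cells 27 of 127 were higher and 47 lower at 25 h, against 27.8% and 28.2% of all tested genes. There Zkscan3, a repressor of autophagy genes, had 1.07 ± 0.04, Ctsf 0.86 ± 0.30, Atg16l2 0.80 ± 0.08 and the pump subunit Tcirg1 0.40 ± 0.05 as the leading rises, and Sgsh -0.72 ± 0.06, Rraga -0.69 ± 0.05, Plekhm1 -0.48 ± 0.04 and Atp6ap2 -0.30 ± 0.06 as the leading falls of the lists. In control cells 27 were higher and 38 lower, against 22.1% and 21.4% of all tested genes. Zkscan3 was again the largest rise (0.85 ± 0.04), and 20 of the 38 falls were among the enzymes and sorting genes. The lists' other leading rises in control cells were Idua (0.54 ± 0.09), Atg14 (0.46 ± 0.07) and Tcirg1 (0.39 ± 0.05), and the leading falls were Ctsc (-0.52 ± 0.05), Atg3 (-0.47 ± 0.05), Rraga (-0.42 ± 0.05) and Atp6ap2 (-0.29 ± 0.06).

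In HL-1 cells few genes of any kind were called between the media, and the 2 members called were the cathepsin genes Ctsl and Ctsb. Ctsl was lower in conditioned medium at both times and Ctsb at 28 h, and no member rose. At 28 h 2 of 38 members fell and 0 rose, against 1.22% and 0.706% of all 14450 tested genes, 1.92% together; at an unadjusted p under 0.05 there were 5 lower and 1 higher. At 16 h 1 of 38 fell and 0 rose, against 1.2% and 0.83%, 2.03% together; at an unadjusted p under 0.05 there were 3 lower and 1 higher. The shares of all tested genes at the unadjusted threshold were not counted at either time. DESeq2 and limma-voom called 0 members higher at either time. The 4 CM libraries all lay below the 4 control libraries for 5 members at 28 h, against 4.64% of all genes, and for 3 at 16 h, against 3.52%. They all lay above for 0 members at either time, against 3.1% of all genes at 28 h and 3.28% at 16 h.

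Ctsl (GRCm38 chr13:64359337-64370890, minus strand) had 576, 559, 531 and 544 CPM in CM cells at 28 h, against 687, 653, 657 and 629.6 CPM in control cells at 28 h (-0.25 ± 0.04, adjusted p = 2.30e-04, edgeR). At 16 h it had 612, 558, 575 and 584 CPM in CM cells, against 675, 667, 638 and 693 CPM in control cells (-0.20 ± 0.04, adjusted p = 0.00307). At both times the 4 CM libraries lay below the 4 control libraries. Ctsb had 813, 793, 816 and 796 CPM in CM cells at 28 h, against 869, 882, 915 and 904 CPM in control cells at 28 h (-0.15 ± 0.03, adjusted p = 0.00506, edgeR). At 16 h it had 732, 731, 727 and 748 CPM in CM cells, against 781, 771, 773 and 796 CPM in control cells, with -0.09 ± 0.03 and no call (adjusted p = 0.187), although these libraries did not overlap either. For the regulators at 28 h, CM over control was -0.10 ± 0.14 for Tfeb, -0.02 ± 0.05 for Tfe3, -0.08 ± 0.07 for Mitf and 0.04 ± 0.08 for Mcoln1, and at 16 h 0.26 ± 0.14, 0.04 ± 0.05, -0.24 ± 0.08 and 0.10 ± 0.08 in the same order; none was called. The uncalled members spanned -0.17 to 0.17 at 28 h and -0.24 to 0.26 at 16 h.

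The effect of the medium at 28 h minus that at 16 h passed the test for 0 members with edgeR, DESeq2 and limma-voom, against 0.277% of all genes, and 1 member had an unadjusted p under 0.05. The regulators' differences were -0.36 ± 0.20 for Tfeb, -0.05 ± 0.07 for Tfe3, 0.15 ± 0.10 for Mitf and -0.06 ± 0.11 for Mcoln1. Of the 127 other pathway genes 2 fell at 28 h, the pump accessory subunit Atp6ap2 (-0.19 ± 0.04, adjusted p = 0.0101) and the calcineurin subunit Ppp3ca (-0.14 ± 0.03, adjusted p = 0.0206, edgeR), 0 rose, and 0 were called at 16 h or for the difference. Of all tested genes 1.92% were called at 28 h and 2.03% at 16 h. With edgeR at an unadjusted p under 0.05, 2 were higher and 14 lower at 28 h, 6 were higher and 6 lower at 16 h, and for the difference 1 was above 0 and 3 below. The share of all tested genes at that threshold was not counted.

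Markers beside the cathepsins were the following. The 8 macrophage markers summed to 28.2 to 31.5 CPM in CM cells at 28 h and 36.7 to 39.7 CPM in control cells at 28 h, and to 17.5 to 23.4 CPM in CM cells at 16 h and 23.0 to 24.8 CPM in control cells at 16 h. Nearly all of it was Cd14, and Adgre1 and Tyrobp had 0 reads in all 16 libraries. Fibroblast markers, 5 genes led by Vim and Col3a1, summed to 7863 to 8752 CPM in CM cells at 28 h and 8502 to 9037 CPM in control cells at 28 h, and to 7050 to 7673 CPM in CM cells at 16 h and 6943 to 8092 CPM in control cells at 16 h. The part of the fibroblast markers in these differences was not tested.

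The largest shift of the set was with time in HL-1. In CM cells 23 of 38 members were higher and 4 lower at 28 h than at 16 h, against 32.6% and 32.9% of all tested genes, 65.4% together. In control cells 25 were higher and 3 lower, against 31.5% and 31.3%, 62.8% together. Without the third control library at 16 h, 25 were higher and 4 lower in control cells. The median log2 fold change was 0.21 over the members and -0.005 over all genes in CM cells, and 0.26 and 0.001 in control cells. All 23 members that rose in CM cells also rose in control cells, where they are 92% of the 25. How often this held over all tested genes was not counted. The HL-1 cells at the 2 times also differed in proliferation markers, whose sum was 2443 to 2668 CPM in CM cells at 28 h and 3607 to 3932 CPM in CM cells at 16 h, and 2606 to 2763 CPM in control cells at 28 h and 3834 to 4091 CPM in control cells at 16 h. Bile duct markers summed to 293 to 349 CPM in CM cells at 28 h and 104 to 123 CPM in CM cells at 16 h, and to 295 to 320.3 CPM in control cells at 28 h and 105 to 127 CPM in control cells at 16 h. Krt19 and Sox9 made up nearly all of that sum, at means of 119 and 96.6 CPM. Krt7 had 14 reads and Epcam 0 over all HL-1 libraries. Cardiomyocyte markers summed to 1092 to 1180.3 CPM in CM cells at 28 h and 902 to 958 CPM in CM cells at 16 h, and to 1149 to 1204 CPM in control cells at 28 h and 904 to 955 CPM in control cells at 16 h. Des and Gja1 made up most of that sum, at means of 524 and 466 CPM. Myh6, Actc1 and Nppa had 4, 5 and 5 reads over all HL-1 libraries. The macrophage and fibroblast sums given above were also higher at 28 h than at 16 h in each medium, without overlap. The part of these markers in the result was not tested.

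The genes that start autophagosomes rose most. Ulk1 (GRCm38 chr5:110784488-110810097, minus strand) had 104, 88.3, 100.4 and 113 CPM in CM cells at 28 h, against 42.5, 45.9, 45.0 and 46.1 CPM in CM cells at 16 h (1.18 ± 0.07, adjusted p = 3.33e-14, edgeR). In control cells it had 89.1, 93.5, 90.3 and 86.3 CPM at 28 h, against 38.2, 47.0, 47.2 and 46.0 CPM at 16 h (1.01 ± 0.07, adjusted p = 1.11e-12). Wipi1 (GRCm38 chr11:109573331-109611967, minus strand) had 113, 107, 119 and 117 CPM in CM cells at 28 h, against 55.6, 52.4, 56.1 and 51.9 CPM in CM cells at 16 h (1.08 ± 0.04, adjusted p = 4.87e-17). Both genes were higher in every 28 h library than in any 16 h library of the same medium. In control cells Wipi1 had 114, 114, 112 and 114 CPM at 28 h, against 54.2, 57.4, 58.3 and 55.6 CPM at 16 h (1.01 ± 0.04, adjusted p = 2.85e-16). Atg9a (0.38 ± 0.06 in CM cells, 0.40 ± 0.06 in control cells), Wipi2 (0.38 ± 0.04 and 0.34 ± 0.04) and Uvrag, a partner of Beclin 1 (0.20 ± 0.07 and 0.29 ± 0.07), rose too, which makes 5 of 6 in this role in both media. The call of Uvrag in CM cells was lost in 3 of 16 single-library omissions (adjusted p up to 0.0730, without the fourth CM library at 28 h).

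**Figure D3:**
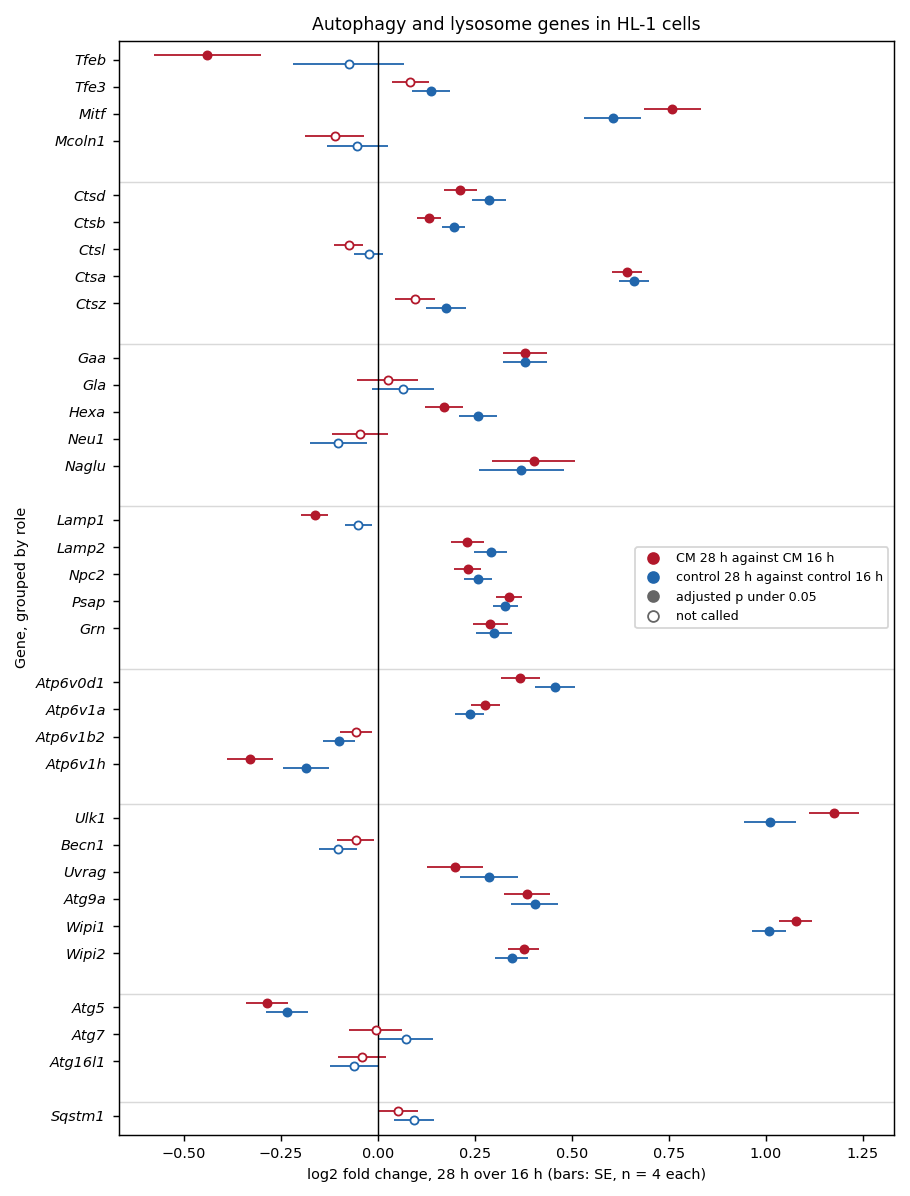
Log2 fold change of 33 members, 28 h over 16 h, in HL-1 cells in CM (red) and in control medium (blue), grouped by role; bars are SE, with 4 libraries per group, and filled points passed an adjusted p of 0.05. Ulk1 and Wipi1 lie furthest right, near 1, and the members filled left of 0 in both media are Atp6v1h and Atg5.

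Sqstm1 was not called between the times in HL-1, at 0.05 ± 0.05 in CM cells and 0.09 ± 0.05 in control cells. Of the conjugation genes Atg5 fell (-0.29 ± 0.05 in CM cells, -0.24 ± 0.05 in control cells), while Atg7 (-0.01 ± 0.07 and 0.07 ± 0.07) and Atg16l1 (-0.04 ± 0.06 and -0.06 ± 0.06) were not called.

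Lysosomal enzymes rose as well. Ctsa had 200.5, 197, 207 and 205 CPM in CM cells at 28 h, against 125, 129, 131 and 133 CPM in CM cells at 16 h (0.64 ± 0.04, adjusted p = 1.73e-13, edgeR). In control cells it had 193, 202, 213 and 212 CPM at 28 h, against 124, 129, 136 and 130.3 CPM at 16 h (0.66 ± 0.04). Ctsd (0.21 ± 0.04 in CM cells, 0.29 ± 0.04 in control cells) and Ctsb (0.13 ± 0.03 and 0.19 ± 0.03) rose in both media, and Ctsz in control cells alone passed the test (0.18 ± 0.05). Ctsl, the member that was lower in CM at both times, was not called between the times, at -0.08 ± 0.04 in CM cells and -0.02 ± 0.04 in control cells. Of the glycosidases Naglu (0.40 ± 0.11 in CM cells, 0.37 ± 0.11 in control cells), Gaa (0.38 ± 0.06 and 0.38 ± 0.06) and Hexa (0.17 ± 0.05 and 0.26 ± 0.05) rose.

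Among the membrane, lipid transfer and activator proteins, 4 of 5 rose in both media. Psap had 0.34 ± 0.03 in CM cells and 0.33 ± 0.03 in control cells, and Grn 0.29 ± 0.05 and 0.30 ± 0.05. Lamp2, which docks the cargo of chaperone-mediated autophagy, had 0.23 ± 0.04 in CM cells and 0.29 ± 0.04 in control cells, and the cholesterol carrier Npc2 0.23 ± 0.04 and 0.26 ± 0.04. Lamp1 fell in CM cells (-0.16 ± 0.03) and was not called in control cells (-0.05 ± 0.03). The pump subunits were split: Atp6v0d1 (0.37 ± 0.05 in CM cells, 0.46 ± 0.05 in control cells) and Atp6v1a (0.28 ± 0.04 and 0.24 ± 0.04) rose, and Atp6v1h fell (-0.33 ± 0.06 and -0.19 ± 0.06). Atp6v1b2 fell in control cells (-0.10 ± 0.04), a call lost in 5 of 16 single-library omissions (adjusted p up to 0.162, without the fourth control library at 16 h) and with DESeq2 (0.0511).

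The regulators did not move together in HL-1. Mitf rose, with 0.76 ± 0.07 in CM cells (adjusted p = 1.23e-09) and 0.60 ± 0.07 in control cells (adjusted p = 7.42e-08, edgeR). Tfeb had 8.83, 8.70, 9.42 and 12.2 CPM in CM cells at 28 h, against 12.1, 14.9, 10.7 and 15.6 CPM in CM cells at 16 h, and fell (-0.44 ± 0.14, adjusted p = 0.00715), though these libraries overlapped. In control cells Tfeb had 9.85, 10.8, 12.1 and 9.32 CPM at 28 h, against 8.19, 12.0, 13.6 and 10.8 CPM at 16 h (-0.08 ± 0.14), and was not called. Whether that differed between the media was the difference tested above, -0.36 ± 0.20, which did not pass. Tfe3 was not called in CM cells (0.08 ± 0.05) and rose in control cells (0.14 ± 0.05), a call lost without the first control library at 16 h (adjusted p = 0.117, edgeR). Mcoln1 was not called, at -0.11 ± 0.08 in CM cells and -0.05 ± 0.08 in control cells.

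**Figure D4:**
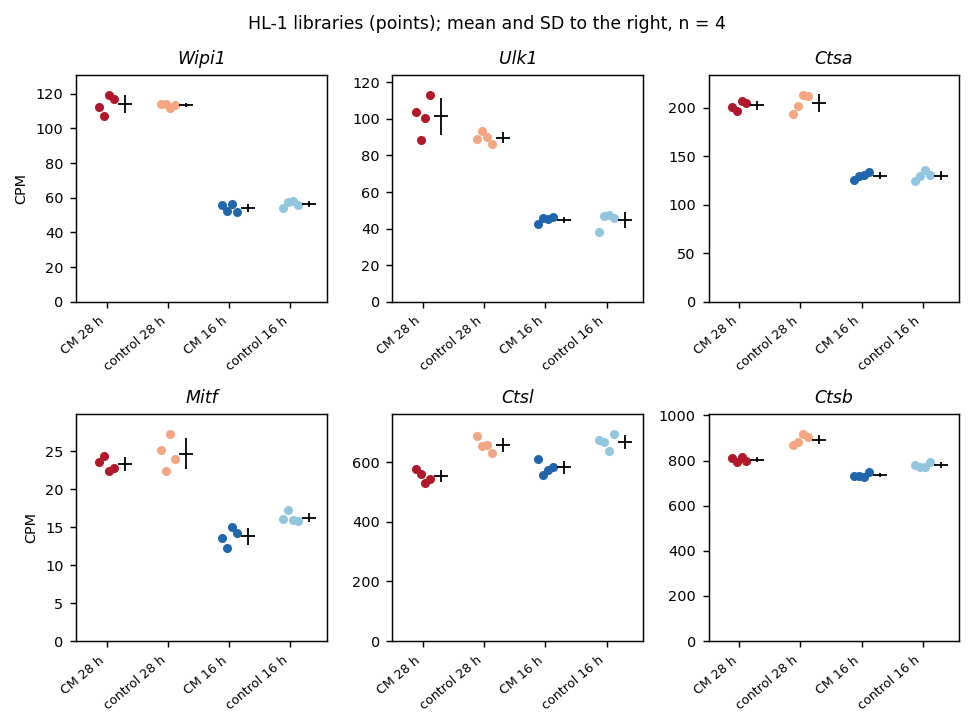
CPM of 6 members in every HL-1 library (points; group mean and SD to the right, n = 4), for CM 28 h, control 28 h, CM 16 h and control 16 h from left to right. Wipi1, Ulk1, Ctsa and Mitf sit higher at 28 h in both media, and Ctsl sits lower in CM cells at both times.

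Other genes of the pathway also rose more often than they fell with time in HL-1. In CM cells 64 of 127 rose and 27 fell, against 32.6% and 32.9% of all tested genes. In control cells 66 rose and 26 fell, against 31.5% and 31.3%. The autophagosome list gave 27 rises and 5 falls of 40 in CM cells and 28 rises and 4 falls in control cells. Its largest rise was that of Bnip3, a receptor for the removal of mitochondria, at 2.44 ± 0.05 in CM cells (adjusted p = 6.28e-22) and 2.34 ± 0.05 in control cells (adjusted p = 2.27e-21, edgeR), and its largest falls were Rab7 in CM cells (-0.27 ± 0.04) and Atg4d in control cells (-0.24 ± 0.09). The enzyme and sorting list gave 22 rises and 6 falls of 41 in CM cells and 21 and 6 in control cells. Ctsh led in CM cells (1.54 ± 0.24) and Ctsf in control cells (2.69 ± 0.50), and Gnptab, which makes the mannose 6-phosphate sorting tag, had the largest fall (-0.79 ± 0.04 and -0.72 ± 0.05).

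The nutrient list was nearly even, with 12 rises and 10 falls of 33 in CM cells and 13 and 11 in control cells. The transcription factor gene Foxo3 had the largest rise, at 1.5 ± 0.05 in CM cells and 1.57 ± 0.05 in control cells, and the mTORC1 subunit gene Akt1s1 the largest fall, at -0.58 ± 0.14 and -0.54 ± 0.14. The further pump genes gave 3 rises and 6 falls of 13 in CM cells and 4 and 5 in control cells. Atp6v1f had the largest rise, at 0.50 ± 0.06 in CM cells and 0.58 ± 0.07 in control cells, and Atp6ap2 the largest fall, at -0.43 ± 0.04 and -0.36 ± 0.04.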

How the data were processed

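Per the labels' protocols, RNA came from TRIzol lysates and was turned into libraries with the NEBNext Ultra II kit. The authors deposited read counts per gene, whole numbers that are not normalized, in a table for each cell line. FastQC 0.11.8, STAR, mm10 and GRCm38 are named in the submitters' processing notes; how reads were counted, and on which strand, is not given in the sources used here. With 15 of 38 members overlapping exons of another gene, some of their reads may belong to that gene, and reads of near-identical copies may be split. Groups come from the labels, and 0 columns were left unmapped. The deposited counts were tested with edgeR 4.0.16 in R 4.3.3 (filterByExpr by group, TMM, 1 mean per group over the 16 libraries of a line, quasi-likelihood test), with Benjamini-Hochberg adjustment over all tested genes and a threshold of 0.05. SE is the size of the log2 fold change over the root of F. The fits were tested on simulated data. The 2 lines were fitted apart. Exon lengths and gene positions come from GENCODE M21 on GRCm38.

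The members and lists were chosen with earlier results of these data known. Values are given by name for the called members and for Tfeb, Tfe3, Mitf and Mcoln1, and per library for members called between DEX or CM and control; of other pathway genes the largest called rise and fall of each list. Some of the 38 members are not reported here by name. Ulk1 and Mitf were added to those shown per library in HL-1, and uncalled values of Ctsl, Sqstm1, Atg7, Atg16l1 and Lamp1 between times in HL-1 were added, after the values were seen. The alternatives comprised DESeq2 1.42.0, limma-voom (limma 3.58.1), scaling by RLE or by total counts only, testing all genes with no filter, a replicate block, fits restricted to the libraries compared, and omission of each single library; leaving out together the libraries that stood apart was added after seeing the data.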

Additional observations from a re-analysis of the deposited data

Results flagged for a closer look

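The DEX effect on 8 members given by name differed between 25 h and 17 h in AML12 by a test of the difference itself, given as the log2 fold change at 25 h minus that at 17 h. Sqstm1 stood at 0.28, its fall being smaller at 25 h. The others were below 0: Atp6v0d1 at -0.24, Wipi1 at -0.22, Atg16l1 at -0.21, Atp6v1b2 at -0.21, Ctsb at -0.20, Naglu at -0.20 and Ctsl at -0.17. Of the 23 other settings run, the call was lost in 13 for Ctsl, 12 for Atg16l1, 8 each for Ctsb and Wipi1, 2 for Naglu and 0 for Sqstm1, Atp6v0d1 and Atp6v1b2.

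In 15 of 264 sets of 4 replicate libraries, 1 library lay further from the others than Dixon's 95% critical value for 4 samples allows, and chance gives about 1 in 20. The second DEX library at 17 h accounted for 4 of them, with Npc2 at 239 CPM (the others 266 to 272), Wipi2 at 109.7 CPM (117 to 117), Becn1 at 62.5 CPM (74.4 to 75.4) and Atg16l1 at 37.5 CPM (39.0 to 39.3). In DEX cells at 25 h, Atp6v1b2 was at 279.5 CPM in the fourth library (299 to 300.4). In AML12 control cells at 25 h, Grn was at 324 CPM in the fourth library (339 to 342). In control cells at 17 h, Psap was at 919 CPM in the second library (888 to 893), Gla at 33.3 CPM in the third (34.9 to 35.1), and Ulk1 at 68.0 CPM and Atg7 at 63.7 CPM in the fourth (69.3 to 69.6 and 71.4 to 72.3).

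In HL-1, Hexa was at 65.9 CPM in the fourth control library at 28 h (59.8 to 60.7). In CM cells at 16 h, Gaa was at 53.4 CPM in the third library (61.2 to 62.1) and Mcoln1 at 39.3 CPM in the second (34.5 to 34.9). In control cells at 16 h, Ulk1 was at 38.2 CPM in the first library (46.0 to 47.2) and Mitf at 17.2 CPM in the second (15.8 to 16.0).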

How the results depend on the processing

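The number of members called moved by over 1.5 times in these cases: the DEX effect at 25 h minus 17 h gave 9 members, but 3 with total counts only and 5 without the low-count filter, and CM against control at 16 h gave 1 member, but 2 with DESeq2. The cause was not tested. Leaving out 1 library at a time gave 10 to 16 members for DEX at 25 h, 12 to 18 for DEX at 17 h, 5 to 13 for their difference, 21 to 24 for 25 h against 17 h in DEX cells and 17 to 23 in control cells, 2 to 3 for CM at 28 h, 1 for CM at 16 h, 0 for their difference, and 26 to 29 for 28 h against 16 h in both media. Of 137 called member values none reversed in any alternative run, and 91 of their 2192 single-library omissions lost the call. Total counts only ended 12 calls, the libraries left out together 11, the missing filter 10, DESeq2 3, the fit of only the compared libraries 2 of 128, RLE size factors 1 and limma-voom 0.

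Values of regulators that were not called changed sign in the following cases. Tfe3 under DEX at 17 h, at 0.01, became -0.026 with total counts only and -0.043 without the libraries that stood apart. Leaving out 1 library at a time it ranged from -0.065 (without the second DEX library at 17 h) to 0.046, with -0.018 without the third control library at 17 h. Likewise Tfe3 under CM ranged from -0.046 to 0.012 at 28 h (highest without the third CM library), from -0.0076 to 0.055 at 16 h (lowest without the first control library) and from -0.083 to 0.0027 for the difference of these effects (highest without the first control library at 16 h). Mcoln1 under CM ranged from -0.025 to 0.11 at 28 h (lowest without the fourth CM library) and from -0.12 to 0.019 for the difference, where omission of the first control library at 16 h, of the second CM library at 16 h (0.0078) and of the second CM library at 28 h (0.013) turned the sign. Mitf between 25 h and 17 h in AML12 control cells ranged from -0.15 to 0.00073 (highest without the second control library at 25 h). Tfeb between 28 h and 16 h in HL-1 control cells ranged from -0.21 to 0.020 (highest without the third control library at 16 h, the one that stood apart there, so 0.020 in both settings). Tfeb between 25 h and 17 h in AML12 control cells, not called, passed the test with limma-voom (0.15, adjusted p = 0.0493), in the fit of only the compared libraries (0.15, adjusted p = 0.0286, edgeR) and in 5 single-library omissions (adjusted p 0.0324 to 0.0484). Single omissions also gave a call to Mcoln1 between 25 h and 17 h in DEX cells (0.0439, without the third DEX library at 25 h), and in CM cells between 28 h and 16 h to Tfe3 (0.0379, without the second CM library at 16 h) and Mcoln1 (0.0458, without the fourth CM library at 28 h).

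The replicate number as a block gave 11 members for DEX at 25 h, 15 for DEX at 17 h, 9 for their difference, 22 for time in AML12 DEX cells and 20 in control cells, 2, 1 and 0 for CM at 28 h, at 16 h and their difference, and 27 for time in HL-1 CM cells and 28 in control cells. Among members given by name it ended the calls of Hexa under DEX at 25 h (adjusted p = 0.0587) and of Neu1 over time in AML12 control cells (0.0564). Libraries with the same number correlated by -0.0945 to 0.108 in AML12 and by -0.119 to 0.121 in HL-1, not over 0.1 in every pair, so the numbers were not taken to pair the libraries. In AML12 7 of 24 and in HL-1 12 of 24 library comparisons matched best with their own number, where unrelated numbers would give 6 on average.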

Other observations

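The promoter matches were set beside the calls, with no test. Of the 9 members with an extended match 4 fell under DEX at 25 h, as did 5 of the 23 whose promoter held none. Among those 4, Ctsa and Atg7 had matches only in windows that do not cover the GENCODE M21 gene start. At 17 h under DEX 1 of the 9 rose and 3 fell, against 6 and 5 of the 23. In HL-1 CM cells 5 of the 9 were higher at 28 h than at 16 h, against 16 of the 23, and in control cells 5 against 18. Other pathway genes held the core motif in 21 of 108 promoters (19.4%).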
